A study of Arabidopsis thaliana with 18 samples.

Results

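The JAZ genes encode the jasmonate ZIM-domain repressors, and 10 of them were followed by gene identifier among the 33602 gene models counted in Arabidopsis thaliana seedlings. They are JAZ1 (AT1G19180), JAZ2 (AT1G74950), JAZ3 (AT3G17860), JAZ5 (AT1G17380), JAZ6 (AT1G72450), JAZ7 (AT2G34600), JAZ8 (AT1G30135), JAZ9 (AT1G70700), JAZ10 (AT5G13220) and JAZ12 (AT5G20900). Whole seedlings grown in liquid medium were used, of the mutant nlp2-2 (nlp2 below), which is labelled a knock-out by T-DNA insertion in NLP2 (AT4G35270), and of the wild-type accession Col-4. Each genotype was sampled untreated with a labelled age of 10 days, and after 3 days of nitrogen starvation with a labelled age of 13 days. It was also sampled after starved seedlings received 3 mM nitrate, with a labelled age of 13 days and a time label of 30 without unit. There were 3 libraries in each of the 6 groups. No starved group was kept without nitrate until the same time, so nitrate cannot be told apart from handling or elapsed time. By these ages starvation cannot be told apart from age, although the untreated libraries, like the other dated ones, carry planting and harvest dates 12 days apart. The labels name 1 mutant allele and do not describe a second line.

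Jasmonates are lipid-derived hormones of wounding, herbivory and growth restraint. JAZ proteins bind MYC2 and related transcription factors and hold jasmonate target genes down, through the adaptor NINJA and co-repressors of the TOPLESS class. The active hormone, jasmonoyl-isoleucine, joins JAZ proteins to the F-box receptor COI1, which leads to JAZ breakdown and frees the MYC factors. JAZ transcripts are themselves induced by jasmonate, which makes the family a negative feedback and a common readout of the pathway. NLP2 is a NIN-like protein, a member of the transcription factor family that carries the primary nitrate response.

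The libraries held 14684639 to 25545031 counted reads. NLP2 was lower in nlp2 than in wild type in each condition (7.17 against 26.0 CPM untreated, 11.9 against 60.3 CPM starved, 12.9 against 46.1 CPM with nitrate), with no overlap between groups. CPM is counts per 1000000 reads on scaled library sizes. All 8 listed nitrate-response genes rose with nitrate in both genotypes. The nitrate libraries of replicate 1 stood apart from replicates 2 and 3: the chi-square per degree of freedom between counts was 31.6 and 43.3 in nlp2 and 38.8 and 60.8 in wild type, against 6.47 in nlp2 and 9.69 in wild type between replicates 2 and 3. Untreated nlp2 replicate 1 also stood apart, at 29.2 and 38.6 against 16.8 between replicates 2 and 3. In whole seedlings, a change in the share of a cell type and a change in RNA per cell cannot be told apart. The 5 shoot and 6 root marker genes had reads in every group, and none of them was called between nitrate and starvation in either genotype. All 5 shoot markers had lower values with nitrate, with a median log2 fold change of -0.2 in nlp2 and -0.19 in wild type. Of the 6 root markers, 5 were lower in nlp2 and 2 in wild type. The part of these shifts in the changes of the JAZ genes was not tested.

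The promoters of 5 members are shown because these genes span the range of responses described next and differ in the motifs that jasmonate-related bHLH factors such as MYC2 are known to bind. Each is the 250 bases before the annotated gene start, read from the RefSeq genome TAIR10.1 and written 5′ to 3′ on the gene's own strand. Capitals mark the G-box, CACGTG. They also mark the related T/G-box, AACGTG, on either strand.
JAZ10, chr5:4218536-4218785, forward strand: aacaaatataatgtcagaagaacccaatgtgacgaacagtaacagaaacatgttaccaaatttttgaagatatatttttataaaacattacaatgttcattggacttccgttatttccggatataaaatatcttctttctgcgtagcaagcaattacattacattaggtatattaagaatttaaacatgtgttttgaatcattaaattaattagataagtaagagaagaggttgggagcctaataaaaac
JAZ7, chr2:14572780-14573029, forward strand: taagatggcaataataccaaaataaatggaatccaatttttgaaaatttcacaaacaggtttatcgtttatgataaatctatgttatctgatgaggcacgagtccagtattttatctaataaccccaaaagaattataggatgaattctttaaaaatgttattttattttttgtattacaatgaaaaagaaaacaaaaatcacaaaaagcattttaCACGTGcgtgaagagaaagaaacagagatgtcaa
JAZ2, chr1:28150447-28150696, reverse strand: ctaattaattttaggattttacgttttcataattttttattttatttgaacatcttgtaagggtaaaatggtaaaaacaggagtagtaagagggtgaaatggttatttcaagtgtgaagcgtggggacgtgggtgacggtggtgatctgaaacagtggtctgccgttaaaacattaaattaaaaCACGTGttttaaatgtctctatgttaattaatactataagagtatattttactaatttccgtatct
JAZ3, chr3:6119457-6119706, forward strand: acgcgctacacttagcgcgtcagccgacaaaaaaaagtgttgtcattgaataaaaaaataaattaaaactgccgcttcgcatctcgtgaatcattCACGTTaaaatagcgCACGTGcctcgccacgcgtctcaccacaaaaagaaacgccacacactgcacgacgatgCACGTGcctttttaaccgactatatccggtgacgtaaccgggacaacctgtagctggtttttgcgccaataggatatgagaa
JAZ12, chr5:7090454-7090703, forward strand: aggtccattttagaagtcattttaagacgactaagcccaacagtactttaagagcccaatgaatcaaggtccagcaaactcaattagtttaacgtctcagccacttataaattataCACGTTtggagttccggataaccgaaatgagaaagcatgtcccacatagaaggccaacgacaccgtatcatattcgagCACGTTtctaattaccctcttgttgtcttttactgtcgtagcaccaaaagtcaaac
Both strands of the 250-base windows of all 10 members were searched for these motifs and also for CGCGTT. The G-box was in 4 of the 10 windows, those of JAZ2, JAZ3, JAZ7 and JAZ8, and in 6.5% of 27443 protein-coding genes' windows. The T/G-box was in 4 of 10, those of JAZ3, JAZ5, JAZ6 and JAZ12, and in 7.5% of all windows. CGCGTT was in the window of JAZ1, where both orientations overlap, and in 2.6% of all windows. JAZ9 and JAZ10 held none of these letters in their windows. These matches describe the sequence and do not show binding.

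Between starvation and nitrate the family rose almost as a whole. In nlp2, 9 of the 10 members were called higher and none lower, where 9.36% of the 21347 genes tested were called higher and 9.23% lower. In wild type 9 of 10 were likewise called higher and none lower, where 11.2% of genes were called higher and 10.2% lower. Calls are those of edgeR at an adjusted p under 0.05, with Benjamini-Hochberg adjustment across every gene tested. The median log2 fold change of the members was 1.93 in nlp2 and 2.19 in wild type, against -0.01 and 0 over all genes. All 10 members passed the filter on low counts, JAZ8 through its nitrate libraries. The levels of nitrate and starved libraries did not overlap for 9 members in nlp2, where 16.6% of genes were higher without overlap, and for 10 members in wild type, where 20.6% were. The summed level of the 10 members was 284 ± 35.8 CPM untreated, 373 ± 89.7 CPM starved and 914 ± 163 CPM with nitrate in nlp2, and 287 ± 41.2, 417 ± 66 and 1130 ± 169 CPM in wild type (SD, n = 3 each).

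**Figure D1:**
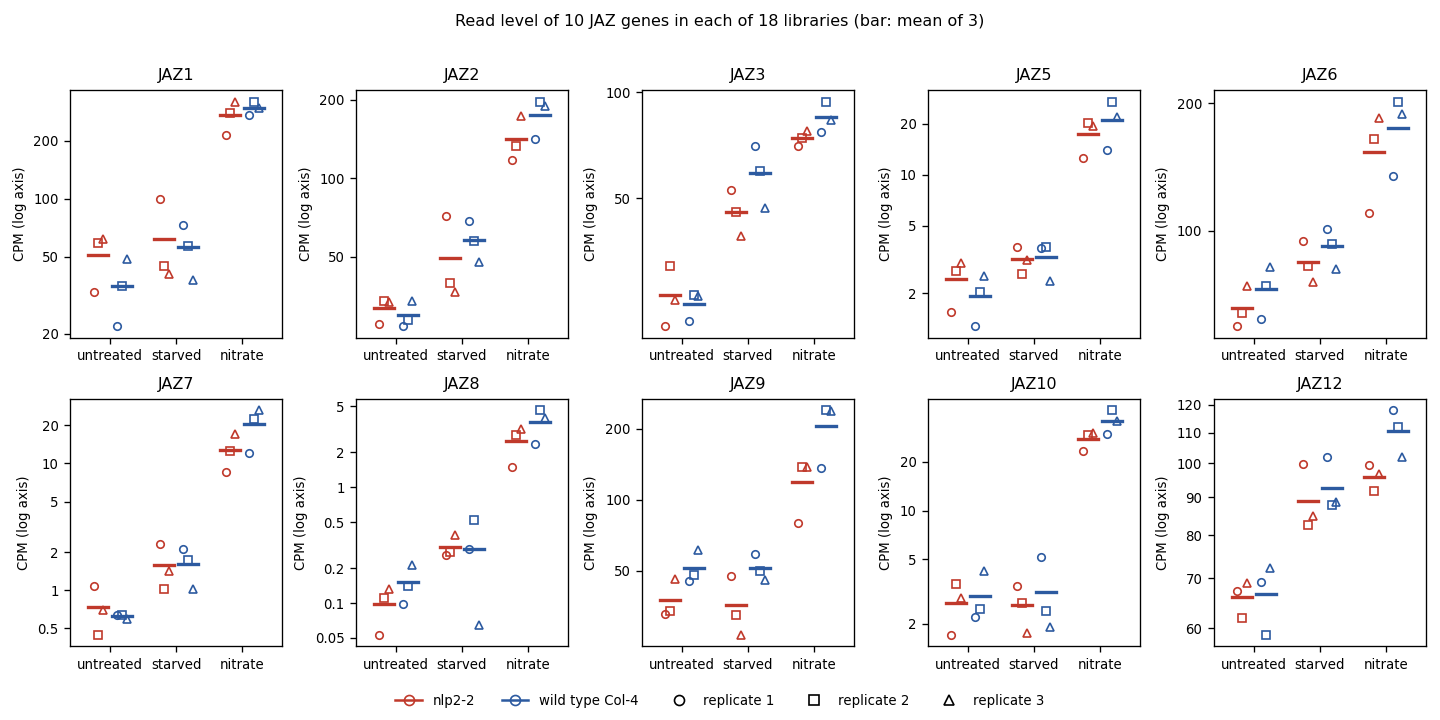
Level of each JAZ gene in CPM on a log axis by condition, with 1 symbol per library, nlp2-2 in red to the left of wild type in blue, and a bar at the mean of 3 libraries. The nitrate libraries lie above the starved libraries for every gene except JAZ12, where the nlp2-2 groups overlap.

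Libraries below are given from replicate 1 to replicate 3, and log2 changes are given ± standard error. JAZ1 and JAZ2, which carry the canonical degron that COI1 recognises, were among the abundant responders. JAZ1 was at 33, 58.7 and 61.6 CPM untreated, 100, 45 and 40.5 CPM starved, and 213, 279 and 317 CPM with nitrate in nlp2. In wild type it was at 21.8, 35.3 and 48.9 CPM untreated, 72.9, 57 and 37.8 CPM starved, and 270, 318 and 294 CPM with nitrate. All nitrate libraries lay far above all others, while the starved and untreated libraries overlapped in both genotypes. JAZ1 rose with nitrate by 2.12 ± 0.38 in nlp2 (adjusted p = 0.000974) and 2.39 ± 0.38 in wild type (adjusted p = 0.00034). JAZ2 was at 27.5, 33.9 and 33.5 CPM untreated, 71.8, 39.6 and 36.7 CPM starved, and 118, 133 and 174 CPM with nitrate in nlp2. In wild type its libraries were at 27, 28.6 and 33.8 CPM untreated, 68.6, 57.6 and 47.5 CPM starved, and 141, 197 and 189 CPM with nitrate. JAZ2 was higher at both steps without overlap, and its log2 change with nitrate was 1.52 ± 0.23 in nlp2 (adjusted p = 0.000107) and 1.60 ± 0.23 in wild type (adjusted p = 5.23e-05).

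JAZ9 and JAZ3 are also repressors with a working degron. The degron of JAZ9 is used in a fluorescent jasmonate sensor, and JAZ3 is the gene of the dominant jasmonate-insensitive mutant jai3-1. JAZ9 was at 32.7, 33.5 and 45.8 CPM untreated, 47.5, 32.5 and 26.7 CPM starved, and 79.6, 138 and 138 CPM with nitrate in nlp2. In wild type it was at 45.2, 47.8 and 61.2 CPM untreated, 58.9, 49.8 and 45.6 CPM starved, and 136, 240 and 237 CPM with nitrate. Starved and untreated libraries overlapped in both genotypes, and only the nitrate libraries of JAZ9 lay apart. JAZ9 rose with nitrate by 1.74 ± 0.27 in nlp2 (adjusted p = 0.000182) and 1.99 ± 0.27 in wild type (adjusted p = 3.78e-05). JAZ3 was at 21.6, 32.1 and 25.7 CPM untreated, 52.6, 45.5 and 39 CPM starved, and 70.4, 74.2 and 77.7 CPM with nitrate in nlp2. In wild type JAZ3 was at 22.4, 26.5 and 26.3 CPM untreated, 70.4, 59.8 and 46.9 CPM starved, and 77.2, 94 and 83.4 CPM with nitrate. JAZ3 stepped up at both stages without overlap in both genotypes. The nitrate step of JAZ3 was 0.70 ± 0.15 in nlp2 (adjusted p = 0.00235) and 0.52 ± 0.15 in wild type (adjusted p = 0.0157). In wild type that call was lost without starved replicate 3 (log2 0.38, adjusted p = 0.102) and without nitrate replicate 2 (log2 0.44, adjusted p = 0.0722).

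JAZ10 is known for splice forms that resist breakdown, and JAZ7, JAZ8 and JAZ5 carry an EAR motif that recruits co-repressors directly. These genes were scarce in the untreated and starved libraries. JAZ10 was at 1.71, 3.5 and 2.88 CPM untreated, 3.41, 2.68 and 1.74 CPM starved, and 23.3, 29.4 and 30 CPM with nitrate in nlp2. In wild type JAZ10 was at 2.21, 2.46 and 4.24 CPM untreated, 5.14, 2.39 and 1.92 CPM starved, and 29.9, 41.9 and 35.7 CPM with nitrate. The untreated and starved libraries of JAZ10 overlapped, and every nitrate library was above all of them. Its log2 change with nitrate was 3.38 ± 0.31 in nlp2 (adjusted p = 5.94e-07) and 3.50 ± 0.31 in wild type (adjusted p = 2.56e-07). Counts per gene model add its splice forms together. JAZ7 was at 1.07, 0.445 and 0.699 CPM untreated, 2.32, 1.02 and 1.41 CPM starved, and 8.61, 12.5 and 17 CPM with nitrate in nlp2. In wild type JAZ7 was at 0.639, 0.631 and 0.59 CPM untreated, 2.1, 1.72 and 1.02 CPM starved, and 12.2, 22.6 and 26.4 CPM with nitrate. JAZ7 rose by 3.00 ± 0.35 in nlp2 (adjusted p = 6.51e-06) and 3.64 ± 0.35 in wild type (adjusted p = 5.1e-07), the largest of the 10 in wild type, where JAZ8 and JAZ10 lay within its error.

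JAZ8 was the lowest member in every group. It had 6, 17 and 146 reads in all over the untreated, starved and nitrate libraries of nlp2, and 8, 16 and 238 reads over those of wild type. JAZ8 passed the filter through its nitrate libraries, and its log2 change of 3.04 ± 0.43 in nlp2 (adjusted p = 4.17e-05) and 3.55 ± 0.42 in wild type (adjusted p = 4.3e-06) rests on 1 to 10 reads in each starved library. JAZ5 averaged 17.4 ± 4.18 CPM with nitrate and 3.17 ± 0.59 CPM when starved in nlp2, and 20.9 ± 6.53 and 3.26 ± 0.776 CPM in wild type (SD, n = 3 each). Its log2 change was 2.46 ± 0.29 in nlp2 and 2.67 ± 0.29 in wild type. JAZ6, the nearest relative of JAZ5 but far more abundant, averaged 153 ± 38.5 CPM with nitrate and 84.2 ± 9.66 CPM when starved in nlp2. In wild type JAZ6 averaged 175 ± 35.3 CPM with nitrate and 91.7 ± 9.79 CPM when starved. It rose by only 0.87 ± 0.18 in nlp2 (adjusted p = 0.00163) and 0.93 ± 0.18 in wild type (adjusted p = 0.000736).

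JAZ12, whose protein is known to be kept stable by the ubiquitin ligase KEG, was the member not called between nitrate and starvation. It was at 67.3, 62 and 69 CPM untreated, 99.8, 82.6 and 85 CPM starved, and 99.4, 91.7 and 96.7 CPM with nitrate in nlp2. In wild type JAZ12 was at 69.3, 58.8 and 72.2 CPM untreated, 102, 87.8 and 88.6 CPM starved, and 118, 112 and 102 CPM with nitrate. The starved and nitrate libraries of nlp2 overlapped, and those of wild type met near 102 CPM. The log2 difference was 0.11 ± 0.10 in nlp2 (adjusted p = 0.54) and 0.26 ± 0.10 in wild type (adjusted p = 0.0757). With the replicate number as a block, JAZ12 was called in wild type (log2 0.26, adjusted p = 0.0148), and likewise without starved replicate 1 (log2 0.33, adjusted p = 0.0446). Its gene overlaps AT5G20910 by 28 bases on the opposite strand. That neighbour was at 21.6 CPM with nitrate and 20.9 CPM when starved in nlp2, and at 22.2 and 22.1 CPM in wild type. The sources used here do not say whether counting used strand. The gene overlaps another model, AT5G03235, by 211 bases, and JAZ10 overlaps AT5G02045 by 71 bases, and neither of those models is counted in the files.

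**Figure D2:**
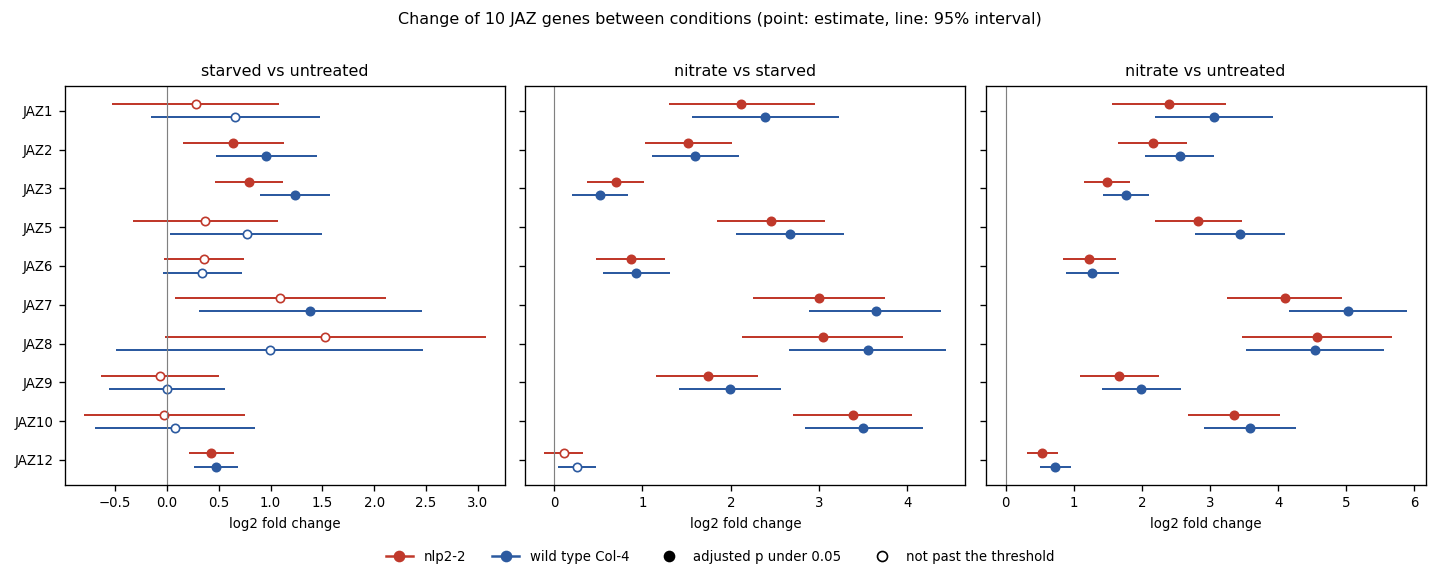
Log2 fold change of each JAZ gene between conditions, with its 95% interval, nlp2-2 in red above wild type in blue, and filled points where the adjusted p is below 0.05. With nitrate against starvation 9 of 10 genes are called in each genotype, and with nitrate against no treatment all 10 are.

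The order of the members by level differed between conditions. Per kilobase of gene model, JAZ12 had the highest mean in untreated and starved seedlings of both genotypes. Its libraries overlapped those of JAZ6 when untreated, at 61.1 ± 3.37 against 52.1 ± 5.98 CPM per kb in nlp2 and 61.8 ± 6.53 against 57.5 ± 8.07 in wild type. When starved, JAZ12 lay above JAZ6 without overlap, with 82.4 ± 8.59 CPM per kb in starved nlp2 and 85.9 ± 7.45 in starved wild type, against 66.7 ± 7.65 and 72.7 ± 7.76 for JAZ6. JAZ1, JAZ2, JAZ3 and JAZ9 came next and lay within each other's spread in the starved seedlings. With nitrate JAZ1 led, with 203 ± 39.9 CPM per kb in nlp2 and 221 ± 18.4 in wild type, above all libraries of every other member. In nlp2, JAZ6, JAZ2 and JAZ9 followed with overlapping libraries at 122 ± 30.5, 111 ± 22.7 and 95.1 ± 27.1 CPM per kb. In wild type JAZ9, JAZ6 and JAZ2 followed, also overlapping, at 164 ± 47.3, 139 ± 28 and 137 ± 23.7 CPM per kb. JAZ12 was then the fifth by its mean in both genotypes, and its libraries overlapped those of JAZ6 in both and those of JAZ9 in nlp2. JAZ10, JAZ7, JAZ5 and JAZ8 remained the 4 lowest in each of the 6 groups, down to 4.45 ± 1.6 CPM per kb for JAZ8 with nitrate in nlp2 and 6.48 ± 2.05 in wild type.

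Between no treatment and starvation fewer members were called. The median log2 fold change of the 10 was 0.40 in nlp2, where 8 values were positive, and 0.72 in wild type, where 10 were, against 0.02 over all genes in each. In nlp2, JAZ2, JAZ3 and JAZ12 were called higher, 3 of 10 where 14.5% of genes were called higher. In wild type, JAZ2, JAZ3, JAZ7 and JAZ12 were called, 4 of 10 where 13.8% were. No member was called lower in either genotype, where 15.7% of genes were in nlp2 and 15.3% in wild type. All 5 shoot markers were called lower at this step in both genotypes. Their summed level was 8440 to 11400 CPM starved and 18100 to 28200 CPM untreated in nlp2, and 11200 to 14000 and 24000 to 28600 CPM in wild type. Of 6 root markers, 1 was called higher in nlp2 and 0 in wild type. The part of these shifts in the changes of the members was not tested. JAZ3 showed the firmest change, 0.79 ± 0.15 in nlp2 (adjusted p = 0.000618) and 1.24 ± 0.15 in wild type (adjusted p = 6.98e-06). JAZ12 rose by 0.43 ± 0.10 in nlp2 (adjusted p = 0.00263) and 0.47 ± 0.10 in wild type (adjusted p = 0.00125), about as far in both. JAZ2 rose by 0.64 ± 0.23 in nlp2 (adjusted p = 0.0405) and 0.96 ± 0.23 in wild type (adjusted p = 0.00405). The values of JAZ9 and JAZ10 were -0.07 ± 0.26 and -0.03 ± 0.36 in nlp2, and 0 ± 0.26 and 0.08 ± 0.36 in wild type. The call of JAZ2 in nlp2 was lost with the replicate block (adjusted p = 0.0827), with no filter on low counts (adjusted p = 0.0659) and with only the groups compared in the fit (adjusted p = 0.0754). It was also lost without starved replicate 1 (log2 0.27, adjusted p = 0.315), untreated replicate 1 (log2 0.54, adjusted p = 0.162), untreated replicate 2 (log2 0.65, adjusted p = 0.0797) or untreated replicate 3 (log2 0.67, adjusted p = 0.0682). The call of JAZ7 in wild type (1.38 ± 0.51, adjusted p = 0.0489) was lost with the block (adjusted p = 0.0681), with relative-log-expression scaling (adjusted p = 0.0524) and with no filter (adjusted p = 0.0719). It was also lost without any one of 5 libraries, starved replicate 1 or 2 or any untreated replicate, with log2 values of 1.16, 1.34, 1.40, 1.37 and 1.33 in that order.

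Set against untreated seedlings, all 10 members were higher with nitrate in both genotypes, where 19.6% of genes were called higher in nlp2 and 21.7% in wild type. The groups did not overlap for any member, where 22.8% and 27.5% of genes were higher without overlap. JAZ8 passed the filter on low counts through its nitrate libraries, so its higher level with nitrate is tied to that filter. It had 6 reads over the untreated libraries of nlp2 and 8 over those of wild type. The changes ran from 0.54 ± 0.10 for JAZ12 to 4.57 ± 0.52 for JAZ8 in nlp2, with a median of 2.28. In wild type they ran from 0.73 ± 0.10 for JAZ12 to 5.02 ± 0.40 for JAZ7, with a median of 2.81. This comparison shares its nitrate libraries with that against starvation. By the labels it sets seedlings of 13 days against seedlings of 10 days, so nitrate, starvation and age cannot be told apart in it. All 5 shoot markers were called lower in both genotypes without overlap, with medians of -1.32 in nlp2 and -1.11 in wild type, and their part in the changes was not tested. All 10 remained called under every alternative and with any library left out.

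The size of the nitrate step differed between replicate numbers. On log2(CPM + 0.5), the median difference of the 10 members between nitrate and starved libraries of the same number was 0.91, 2.08 and 2.29 for replicates 1, 2 and 3 of nlp2, and 1.50, 2.30 and 2.65 in wild type. Replicate 1 gave the smallest difference for 10 of 10 members in nlp2 and 9 of 10 in wild type, where it did so for 58.8% and 39.6% of the genes called higher. In nlp2, JAZ6 differed by 0.22 in replicate 1 and by 1.00 and 1.28 in replicates 2 and 3. Both ends of the difference contributed in that number, since the starved library of replicate 1 was the highest of 3 and the nitrate library the lowest of 3 for JAZ1, JAZ2, JAZ3, JAZ5, JAZ6, JAZ7, JAZ9 and JAZ10 in nlp2. Between starved and untreated libraries of the same number the order was the other way, with medians of 0.84, 0.28 and 0.09 for replicates 1, 2 and 3 of nlp2 and 1.12, 0.68 and -0.04 in wild type. In the 13 libraries whose labels give dates, each replicate number has its own planting month. No starved library of wild type is dated, so its same-numbered pairs in wild type rest on the number alone. Without replicate 1 of every group, a choice made after the data were seen, 9 members were called in nlp2 and 9 in wild type, where 17.4% and 18% of genes were called in either direction.

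**Figure D3:**
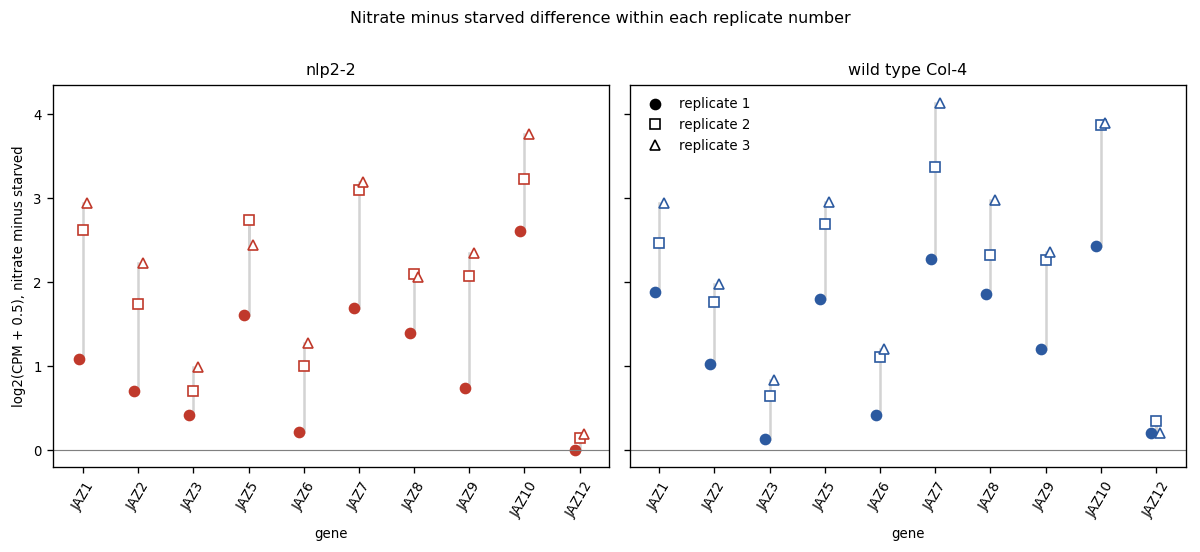
Difference in log2(CPM + 0.5) between nitrate and starved libraries of the same replicate number for each JAZ gene, nlp2-2 left and wild type right, with replicate 1 filled. The medians over the genes are 0.91, 2.08 and 2.29 in nlp2-2 and 1.50, 2.30 and 2.65 in wild type.

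No member differed between nlp2 and wild type in any condition at an adjusted p below 0.05, where 0.361% of genes were called untreated, 0.365% starved and 0.787% with nitrate. At an unadjusted p below 0.05, 0 members passed untreated, 1 starved and 3 with nitrate, where 6.02%, 5.8% and 7.3% of genes did, and DESeq2 called no member. Untreated, 5 of the 10 values were lower in nlp2, with a median log2 fold change of 0.03. In starved seedlings 9 were, with a median of -0.09. With nitrate all 10 values were lower in nlp2, with a median log2 fold change of -0.28 against -0.01 over all genes. The direction was not particular to the JAZ genes. In the jasmonate lists described below, 9 of 9 breakdown genes were lower (median -0.55), as were 10 of 10 targets (-0.24). So were 12 of 14 synthesis genes (-0.18) and 7 of 10 genes for the receptor, co-repressors and MYC or JAM factors (-0.07). None of these was called. The 5 shoot markers were all lower in nlp2 in every condition, with medians of -0.13 untreated, -0.27 starved and -0.27 with nitrate. With nitrate, 4 of them did not overlap between the genotypes. None of the 5 was called, and their summed level was 7410 to 9130 CPM in nlp2 and 10200 to 11300 CPM in wild type. The part of this shift in the values of the members was not tested. JAZ9 stood lowest at -0.79 ± 0.26 (95% interval -1.33 to -0.24, adjusted p = 0.275), with 79.6, 138 and 138 CPM in nlp2 against 136, 240 and 237 CPM in wild type. Within each replicate number the JAZ9 difference on log2(CPM + 0.5) was -0.77, -0.80 and -0.78. JAZ7 differed by -0.68 ± 0.28 (interval -1.27 to -0.08, adjusted p = 0.534) and JAZ12 by -0.21 ± 0.10 (interval -0.41 to 0, adjusted p = 0.676). JAZ12 was the single member without overlap between the genotypes, where 7.92% of genes were lower in nlp2 without overlap. In same-numbered pairs, 9 of 10 members were lower in nlp2 in all 3, where 20.9% of genes were. The members move together across libraries, so these are not 10 separate observations. Without replicate 1 of every group the JAZ9 difference was called (log2 -0.78, adjusted p = 0.0223), where 1.23% of genes were. For JAZ1 the interval reached from -0.90 to 0.65, which leaves a difference of more than 1.5-fold in either direction possible.

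**Figure D4:**
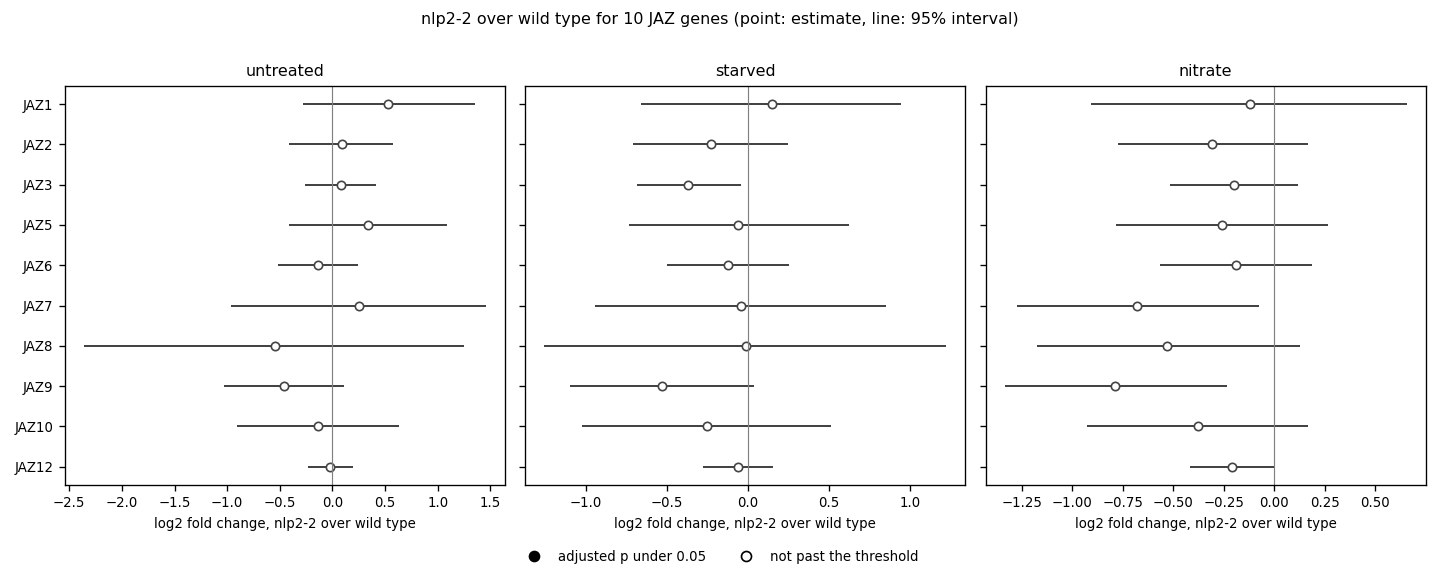
Log2 fold change of nlp2-2 over wild type for each JAZ gene in 3 conditions, with its 95% interval and a separate axis scale for each condition. All points are open, since no member passed an adjusted p of 0.05, and with nitrate all 10 lie below 0, from -0.12 for JAZ1 to -0.79 for JAZ9.

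The difference between the genotypes in the nitrate response was tested directly as an interaction. No member was called, nor was any of the 21347 genes (0% called), while 313 genes had an unadjusted p below 0.05 and DESeq2 called 2. The interaction ran from -0.63 for JAZ7 (interval -1.71 to 0.44) to 0.17 for JAZ3 (interval -0.27 to 0.61). For the response to starvation the interaction was likewise called for no member and no gene, with 395 genes at an unadjusted p below 0.05 and 2 called by DESeq2. The lowest member there was JAZ3, at -0.45 ± 0.22 (interval -0.90 to 0, adjusted p = 1).

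Of the further JAZ genes in a list of 9 other TIFY-family loci, JAZ4 rose with nitrate by 0.51 ± 0.12 in nlp2 (adjusted p = 0.00534) and 0.74 ± 0.12 in wild type (adjusted p = 0.000157). JAZ11 differed the other way, by -0.35 ± 0.11 in nlp2 (adjusted p = 0.0364) and -0.19 ± 0.11 in wild type (adjusted p = 0.265). The locus AT3G22275, which the reference does not name, had 84 reads with nitrate and 3 when starved over the nlp2 libraries, and 226 and 3 reads over those of wild type. It passed the filter on low counts through its nitrate libraries. PPD2, a TIFY gene of leaf growth outside the JAZ group, was called lower in wild type, and the other 5 loci of the list were called in neither genotype.

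The machinery around the repressors rose in part. Of 10 tested genes for the receptor, adaptors, co-repressors and MYC or JAM factors, 5 were called higher and 1 lower in nlp2, and likewise 5 and 1 in wild type. Of all genes, 9.36% were called higher and 9.23% lower in nlp2, and 11.2% and 10.2% in wild type. MYC2, the main target of JAZ repression, rose by 1.21 ± 0.20 in nlp2 (adjusted p = 0.000224) and 1.35 ± 0.20 in wild type (adjusted p = 5.86e-05). JAM1, a repressor that competes with MYC2, rose by 1.21 ± 0.21 in nlp2 and 1.85 ± 0.21 in wild type. NINJA rose by 0.29 ± 0.09 in nlp2 and 0.40 ± 0.09 in wild type. MED25, a Mediator subunit that works with MYC2, rose by 0.72 ± 0.14 in nlp2 and 0.56 ± 0.14 in wild type. COI1 was called lower in wild type (-0.23 ± 0.08, adjusted p = 0.0363), with -0.20 ± 0.08 in nlp2 (adjusted p = 0.0782). MYC4 was called lower in nlp2 (-0.27 ± 0.09, adjusted p = 0.0328), with -0.23 ± 0.09 in wild type (adjusted p = 0.0645). TPL and MYC3 were called in neither, with values of -0.17 ± 0.15 and -0.12 ± 0.11 in nlp2 and -0.26 ± 0.15 and -0.16 ± 0.11 in wild type.

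Genes of jasmonate synthesis and of jasmonate breakdown were mostly higher with nitrate, as the JAZ genes were. Of 14 tested synthesis genes, 11 were called higher and 1 lower in nlp2, and 12 and 1 in wild type, with a median of 1.04 and 1.31. Of all genes, 9.36% were called higher and 9.23% lower in nlp2, and 11.2% and 10.2% in wild type. AOC3, an allene oxide cyclase, rose by 2.37 ± 0.15 in nlp2 and 2.55 ± 0.15 in wild type. OPR3, the reductase of the jasmonate precursor OPDA, rose by 1.79 ± 0.14 in nlp2 and 2.05 ± 0.14 in wild type. JAR1, which makes the active isoleucine conjugate, was the gene called lower, at -0.60 ± 0.08 in nlp2 and -0.47 ± 0.08 in wild type. Of 9 tested breakdown genes, 8 were called higher in nlp2 and 9 in wild type, where 9.36% and 11.2% of all genes were. Their medians were 2.33 and 2.48. CYP94B3 and CYP94C1, which oxidise the active conjugate, rose by 2.71 ± 0.19 and 3.51 ± 0.32 in nlp2 and by 3.30 ± 0.20 and 4.07 ± 0.33 in wild type. The amidohydrolase genes IAR3 and ILL6 rose by 0.87 ± 0.11 and 2.37 ± 0.19 in nlp2 and by 1.11 ± 0.11 and 2.48 ± 0.19 in wild type.

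Targets further down the pathway split. Of 10 tested, 4 were called higher with nitrate in each genotype and none lower, with a median of 0.60 in nlp2 and 0.63 in wild type. Of all genes, 9.36% were called higher and 9.23% lower in nlp2, and 11.2% and 10.2% in wild type. TAT3, a tyrosine aminotransferase gene used as a jasmonate marker, rose by 2.67 ± 0.42 in nlp2 and 4.31 ± 0.47 in wild type. The transcription factor genes ERF2, NAC019 and ORA59 rose by 1.11 to 1.47 in nlp2 and by 1.33 to 1.60 in wild type. The vegetative storage protein genes VSP1 and VSP2, singled out after their values were seen, were not called with nitrate in either genotype (smallest adjusted p = 0.118). Their values were positive, at 0.71 ± 0.30 and 0.39 ± 0.34 in nlp2 and 0.62 ± 0.29 and 0.49 ± 0.34 in wild type. Nitrate libraries of both genes lay above the starved ones without overlap, where 16.6% of genes did in nlp2 and 20.6% in wild type. VSP1 and VSP2 had already risen with starvation. VSP1 rose by 1.60 ± 0.32 in nlp2 and 2.19 ± 0.33 in wild type, and VSP2 by 1.81 ± 0.37 and 2.00 ± 0.37. With starvation 3 of the 10 tested targets were called higher in nlp2 and 7 in wild type, where 14.5% and 13.8% of genes were. In wild type the 7 included ERF2 and NAC019 but not ORA59 or TAT3. At that step 3 of 10 JAZ members in nlp2 and 4 of 10 in wild type were called higher, where 14.5% and 13.8% of genes were.

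Touch and wounding genes, which respond within minutes to handling, also moved with nitrate. Of 12, 7 were called higher in nlp2 and 9 in wild type, where 9.36% and 11.2% of all genes were. None was called lower, where 9.23% and 10.2% were. TCH3, which encodes a calmodulin-like protein, rose by 2.24 ± 0.17 in nlp2 and 2.69 ± 0.18 in wild type. TCH4, a cell-wall enzyme gene, rose by 1.47 ± 0.19 in nlp2 and 1.68 ± 0.20 in wild type. The summed level of the list was 626 to 936 CPM with nitrate and 256 to 308 CPM when starved in nlp2, and 650 to 694 and 201 to 218 CPM in wild type. In starved against untreated seedlings 7 of the 12 were called lower in nlp2 and 5 in wild type, and none higher. Of all genes, 15.7% in nlp2 and 15.3% in wild type were called lower at this step, and 14.5% and 13.8% higher. In nlp2, ZAT10, a zinc-finger gene of this list named after its values were seen, had 14.7 CPM starved and 60.4 CPM untreated. Log2 changes of the list at this step ran from -2.07 to -0.05 in nlp2, with a median of -1.11. They ran from -1.70 to 0.04 in wild type, with a median of -0.76. Untreated, the summed level of the list was 417 to 524 CPM in nlp2 and 235 to 396 CPM in wild type. The part of handling in the JAZ increase was not tested.

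**Figure D5:**
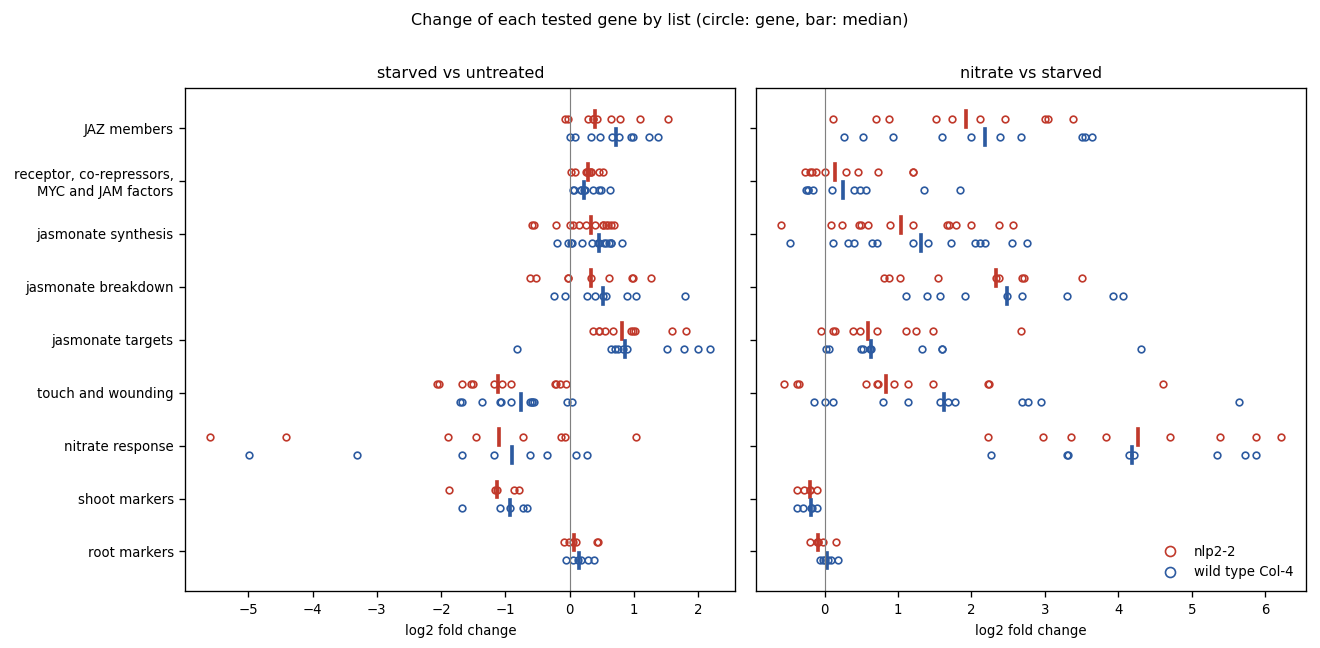
Log2 fold change of every tested gene by list, starved over untreated on the left and nitrate over starved on the right, with nlp2-2 in red above wild type in blue and a bar at each median. With nitrate the JAZ medians are 1.93 in nlp2-2 and 2.19 in wild type, and with starvation they are 0.40 and 0.72. The touch and wounding list has medians of -1.11 in nlp2-2 and -0.76 in wild type with starvation.

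Across the 18 libraries the members followed one another closely. Each member's log2 CPM was correlated with the mean of the other 9 after standardising. As a description over libraries that share the nitrate step, Pearson's r ran from 0.802 for JAZ12 to 0.992 for JAZ2, with 0.896 for JAZ3 and 0.908 for JAZ9. Among 7833 other genes with a symbol and at least 5 CPM in a group, 327 had an r above 0.9 with the mean of the 10 members. The highest were IAR3 (0.990), the peptide receptor gene PEPR1 (0.988), MYC2 (0.988), the phospholipase gene PLC5 (0.988), OPR3 (0.987) and OPCL1 (0.985), a CoA ligase gene of jasmonate synthesis. The lowest were SFR2 (-0.975), a galactolipid-remodelling enzyme gene, PLP9 (-0.971), FP3 (-0.960), IQD24 (-0.958), CIA2 (-0.956) and HBP1 (-0.956).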

How the data were processed

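Poly(A)-selected, stranded, single-end libraries were made per the labels' protocols. The submitters' processing notes name Bowtie2 and TAIR10. Reads were counted per gene model after reads with equally good hits elsewhere were removed (1.9% to 2.17% of mapped reads), per the file headers. The authors deposited whole-number counts. The sources used here do not give versions, the annotation or the use of strand. The longest stretch that any 2 of the members' annotated transcripts share exactly is 20 bases, and 25 bases with JAZ4 included.

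Counts were tested in R 4.3.3 with edgeR 4.0.16: filterByExpr (count minimum 10, total minimum 15) left 21347 genes, scaling was TMM, and all 18 libraries entered one robust quasi-likelihood fit of 6 group means (12 residual degrees of freedom, common biological coefficient of variation 0.129). Adjusted p-values are Benjamini-Hochberg over all genes tested. DESeq2 1.42.0 was an alternative. The procedure was first run on simulated counts, drawn with the same spread for all genes and no effect of replicate number. That run does not cover the differences between replicate numbers described above. The reference (TAIR10.1) supplied gene names, promoters, gene overlaps and transcript sequences, and no coordinates were converted.

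The members and gene lists were chosen with earlier results of these data known. Named genes are all members, the other TIFY loci, up to 4 called genes of each list with the smallest p in nitrate against starvation in wild type, COI1, NINJA, TPL and the MYC genes, and the 6 genes most and least correlated with the members, with exceptions stated where they occur. No seed marker passed the filter. The labels of the 13 dated libraries (9 of nlp2 and 4 of wild type) tie each replicate number to 1 planting month, and the correlation of same-numbered libraries' deviations from their group means ran from -0.108 to 0.625, above 0.1 in 33 of 45 pairs. The labels do not state that libraries came from separate cultures within a month, and p-values measure the spread between these libraries.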

Additional observations from a re-analysis of the deposited data

How the results depend on the processing

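Scaling by relative log expression, DESeq2, no filter on low counts, the replicate number as a block, fitting only the groups compared, and leaving out each library reversed no called member's direction. With nitrate against starvation, 9 members were called in nlp2 and 9 to 10 in wild type under the settings that keep all libraries, and 7 to 9 and 7 to 10 with libraries left out. Under the former, 13.6% to 24.4% of all genes in nlp2 and 15.9% to 27.5% in wild type were called in either direction. With libraries left out the shares were 8.32% to 17.4% and 10.4% to 18.1%. The counts for starvation against no treatment were 3 in nlp2 and 4 in wild type, with 2 to 4 and 3 to 6 under the other settings and 2 to 3 and 2 to 4 with libraries left out. Under those other settings, 21.5% to 38.1% of all genes in nlp2 and 21.6% to 36.5% in wild type were called in either direction. With libraries left out the shares were 18.9% to 28.9% and 17.2% to 25.6%. With only the groups compared, the wild-type count of 6 included JAZ5 (adjusted p = 0.0474), and DESeq2 called JAZ7 in nlp2 (adjusted p = 0.03). Nitrate against no treatment gave 10 in both genotypes throughout, where 24.2% to 45.6% of genes in nlp2 and 27.8% to 48.4% in wild type were called. Between genotypes the count stayed at 0 except without replicate 1 of every group, where it was 1 with nitrate. Leaving out a replicate number in all groups was chosen after the data were seen. It ended the nitrate call of JAZ1 in nlp2 (without replicate 2, adjusted p = 0.0713), of JAZ3 in nlp2 (without 3, adjusted p = 0.103) and in wild type (without 2 or 3, adjusted p = 0.171 and 0.239), and of JAZ6 in nlp2 (without 2 or 3, adjusted p = 0.0733 and 0.109) and in wild type (without 2, adjusted p = 0.0576). For starvation it ended the call of JAZ2 in nlp2 (without 1 or 2, log2 0.17 and 0.79, adjusted p = 0.398 and 0.112) and in wild type (without 2, adjusted p = 0.0786), and that of JAZ7 in wild type (without 2 or 3, adjusted p = 0.229 and 0.094). The replicate block gave 9 and 10 members for nitrate against starvation in nlp2 and wild type, where 24.4% and 27.5% of all genes were called. For starvation it gave 2 and 3 of the 10, where 38.1% and 36.5% of all genes were called in either direction. The block changed no other count of members. Over all genes, the count differing between nlp2 and wild type moved most with the setting: 77 untreated, 78 starved and 168 with nitrate, against 157, 152 and 314 with DESeq2, 143, 137 and 360 with the block, and 17, 168 and 104 with only the groups compared. Leaving out single libraries or replicate numbers gave 10 to 67, 16 to 67 and 17 to 262 of these. Without replicate 2 or replicate 3 of every group, the genes called between nitrate and starvation numbered 2389 and 1781 in nlp2 (3969 with all libraries) and 2954 and 2218 in wild type (4558), with fewer libraries in each fit. Those between starvation and no treatment numbered 4242 and 4033 in nlp2 (6441) and 3849 and 3670 in wild type (6205). Depth limits JAZ8, with 1 to 10 reads in each untreated or starved library.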
